A study of Mus musculus with 7 samples.

Results

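Hippocampal RNA-seq of mice that had received injections was compared with that of mice that had not been injected with anything. The injected side held 4 libraries, 2 from DMSO-treated mice (replicates 2 and 3) and 2 from ONX-0914-treated mice (replicates 1 and 2), and the uninjected side held 3 libraries of untreated mice (replicates 1 to 3). These are all 7 libraries of the series. They were chosen by their labels alone, without regard to any expression value. All mice were males of the outbred CD1 stock, described as age-matched without an age. ONX-0914 blocks the immunoproteasome, a form of the proteasome that immune cells use most. Mice received it intraperitoneally 2 times per week for 2 months, at 10 mg/kg. DMSO, its solvent, was given in an equal volume on the same schedule. Both injected groups therefore share repeated handling, needle and solvent, whereas ONX-0914 itself reached only one of them. No group was injected with a liquid other than DMSO or its ONX-0914 solution, so the parts played by handling, needle and solvent cannot be told apart. The labels do not say whether the libraries of a group came from separate mice, and the p-values below measure only the spread between these libraries. Each mouse of an outbred stock has its own genotype, and with 3 and 4 libraries, the genotypes of the mice and their treatment cannot be told apart either.

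The question was which genes move alike in DMSO-treated and ONX-0914-treated mice. Of 55416 Ensembl gene identifiers, 12701 had enough counts to be tested. One mean was fitted to the 4 injected libraries and one to the 3 untreated libraries (edgeR's quasi-likelihood test with Benjamini-Hochberg adjustment), so that any difference between DMSO and ONX-0914 counted as spread. A gene was called a DEG at an FDR under 0.05. A Log2FC above 0 means a higher level in injected mice, and levels are counts scaled to library size (CPM) by TMM. A gene was described as not overlapping when all 4 injected libraries lay above, or all 4 lay below, all 3 untreated libraries.

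The total count on genes lay between 2842675 and 3877006 in 6 libraries and was 13782270 in ONX-0914 replicate 2. Both ONX-0914 libraries stood apart from the others in genes that mark other tissue. In ONX-0914 replicate 1, all 14 genes of the thalamic and midbrain list were above all untreated libraries, and the list summed to 1560 CPM there against 219 to 274 CPM in the untreated and DMSO libraries and 259 CPM in ONX-0914 replicate 2. The striatal list summed to 1400 CPM in ONX-0914 replicate 1 and to 216 to 274 CPM in the other 6 libraries. In ONX-0914 replicate 2, red blood cell genes summed to 853 CPM against 30.0 to 46.4 CPM in the untreated and DMSO libraries and 95.3 CPM in ONX-0914 replicate 1, and mitochondrially encoded genes took 3.71% of the counts against 0.818% to 1.59% elsewhere. Markers that define hippocampal fields were present in every library, such as Prox1 of dentate gyrus granule neurons (36.6 to 107 CPM) and Wfs1 of CA1 pyramidal neurons (89.4 to 194 CPM). In whole tissue, fewer cells of a type and less RNA per cell cannot be told apart. The results below are therefore given for DMSO and ONX-0914 separately, and with libraries left out where this changes a call.

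Glo1, which was not called by edgeR, and Cwc22 are known for differing between mouse stocks and individual mice. Glo1 encodes glyoxalase 1, which detoxifies the glycolysis by-product methylglyoxal, and the region around it is carried in extra copies by some laboratory mice. Cwc22 encodes a splicing factor that helps to deposit the exon junction complex, and it also varies in copy number between mouse stocks. Responses that repeated injections are known to evoke were looked at as well. They are glucocorticoid-induced genes, which respond to adrenal stress hormone, and immediate early genes, which respond to neuronal activity. Copy number was not measured in these libraries, and the level of a transcript does not give it.

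The promoters of the genes that the results turn on are shown so that they can be compared with each other. They are the 250 bases before the transcription start, taken from RefSeq (GRCm38.p6) and written 5′ to 3′ on the strand of the gene. Capitals mark every match, on either strand, of 5 motifs that were searched: the TATA box (TATAAA, in 12.4% of 32851 promoters of this length), the CCAAT box (CCAAT, 33.8%), the GC box (GGGCGG, 32.7%), the glucocorticoid receptor half-site pair (ACANNNTGT, 5.84%) and the heat shock element (GAANNTTC, 6.69%). Cwc22 lies on the minus strand, at chr2:77946357-77946606. Glo1, also on the minus strand, is at chr17:30612660-30612909. Dnah8 (chr17:30626686-30626935) and Glp1r (chr17:30901617-30901866) lie on the plus strand, near Glo1.
Cwc22: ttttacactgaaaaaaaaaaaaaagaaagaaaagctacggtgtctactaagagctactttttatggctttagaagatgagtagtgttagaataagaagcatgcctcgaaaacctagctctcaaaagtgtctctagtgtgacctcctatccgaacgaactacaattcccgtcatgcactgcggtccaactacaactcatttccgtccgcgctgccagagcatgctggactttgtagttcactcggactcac
Glo1: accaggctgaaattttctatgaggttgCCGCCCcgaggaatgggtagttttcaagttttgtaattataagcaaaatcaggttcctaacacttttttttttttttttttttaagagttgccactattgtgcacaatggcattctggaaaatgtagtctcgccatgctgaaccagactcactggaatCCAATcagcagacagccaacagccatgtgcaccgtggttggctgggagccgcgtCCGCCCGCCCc
Dnah8: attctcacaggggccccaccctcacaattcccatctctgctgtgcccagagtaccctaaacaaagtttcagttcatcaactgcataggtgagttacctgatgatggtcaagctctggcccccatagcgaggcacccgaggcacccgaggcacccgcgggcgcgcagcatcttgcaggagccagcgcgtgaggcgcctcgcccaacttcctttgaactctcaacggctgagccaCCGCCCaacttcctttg
Glp1r: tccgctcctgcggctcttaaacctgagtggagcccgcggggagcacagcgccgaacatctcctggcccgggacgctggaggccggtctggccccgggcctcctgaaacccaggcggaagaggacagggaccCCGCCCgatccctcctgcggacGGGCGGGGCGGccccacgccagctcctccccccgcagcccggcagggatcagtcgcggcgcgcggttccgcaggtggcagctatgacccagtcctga
The Cwc22 promoter held none of the 5 motifs. Glo1 had 1 CCAAT box and 3 GC boxes, Dnah8 had 1 GC box and Glp1r had 3 GC boxes, and 2 of the GC boxes in Glo1 and in Glp1r overlap each other. The GC content was 42.8% for Cwc22, 46.4% for Glo1, 59.2% for Dnah8 and 73.2% for Glp1r, against a median of 52.4% over all promoters. Neither the glucocorticoid nor the heat shock motif occurred in these windows. AC165962.1, AC165951.1 and 1500015A07Rik had no entry.

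Only 3 genes were DEG between injected and untreated mice, namely AC165951.1, which fell, and 1500015A07Rik and Cwc22, which rose. These are 0.0236% of the 12701 genes tested, with 0.0157% higher and 0.00787% lower. An unadjusted p under 0.05 was obtained for 679 genes (5.35%), of which 428 were higher and 251 lower in injected mice. The lowest FDR beyond the called genes was 0.0937 (Psmc3ip), and all other genes had an FDR of at least 0.808 (edgeR), so where a value below is given without an FDR, the gene was not called. In simulated counts with the spread of these libraries, 65, 65 and 63 genes were changed by a log2 value of 1, 2 and 3. The same test recovered 29.2%, 83.1% and all of them. It made 147 calls there against 3 here, and more calls ease the adjusted threshold. These shares are therefore not the power of the present comparison. Genes with a large Log2FC went uncalled here, such as Lefty1 (−3.89).

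**Figure D1:**
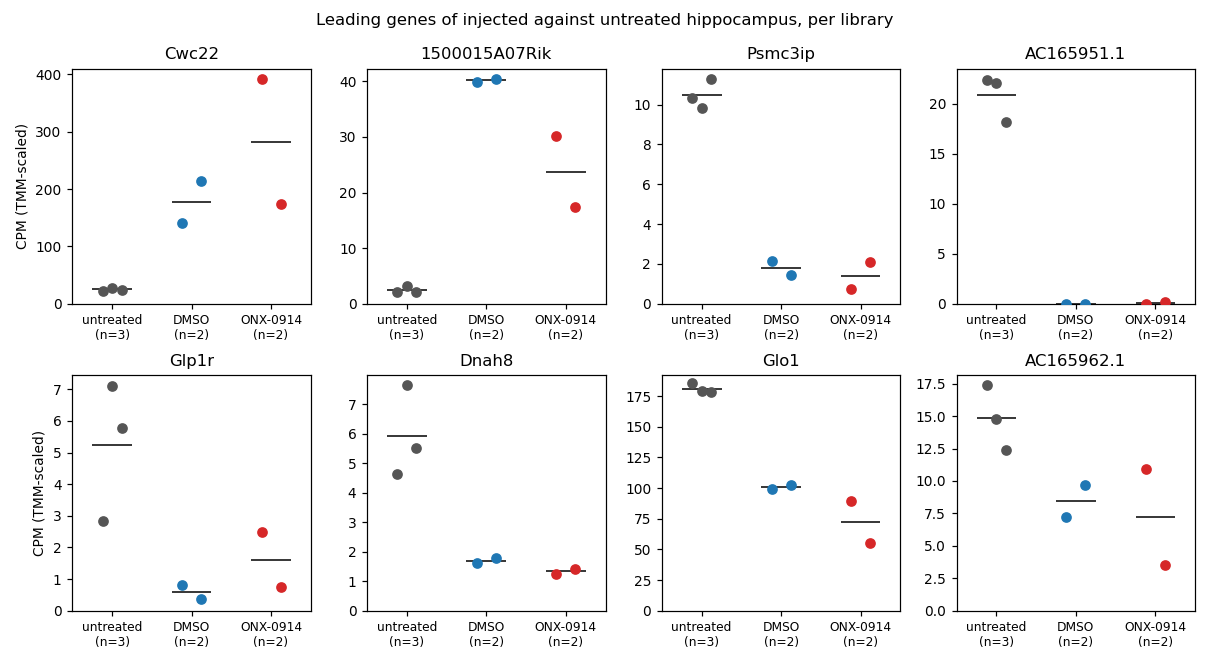
Levels of 8 genes in each library, in CPM on TMM-scaled library sizes on a linear axis from 0, for untreated (n = 3), DMSO-treated (n = 2) and ONX-0914-treated (n = 2) mice. Points are libraries and bars are group means. In every panel, all 4 injected libraries lie on one side of the 3 untreated libraries, and the DMSO and ONX-0914 points lie on the same side.

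AC165951.1 (ENSMUSG00000117786), an antisense RNA gene on chromosome 17 that overlaps Glp1r on the opposite strand, was present in untreated mice and almost absent in injected mice. Its level was 22.4, 22.1 and 18.2 CPM in the untreated libraries, 0 and 0 CPM in the DMSO libraries, and 0 and 0.135 CPM in the ONX-0914 libraries. The untreated libraries held 63, 81 and 66 counts, and all 4 injected libraries together held 2 counts, both in the deepest library. Scaled to library size, the level was 264-fold higher in untreated than in injected mice (exact Poisson 95% interval 72.2 to 2190, covering counting error only). Against the DMSO libraries, both at 0, untreated mice were at least 22.3-fold higher when 3 counts per library are taken as the limit. The Log2FC of the model was −7.69 (SE 0.484, FDR = 8.66e-05, edgeR's quasi-likelihood test). It was called in all 19 settings in which it could be tested, with an FDR of at most 0.0109.

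1500015A07Rik (ENSMUSG00000098702), an antisense RNA gene on chromosome 18 that overlaps Afap1l1, rose with both kinds of injection. It was at 2.14, 3.28 and 2.20 CPM in untreated, 39.9 and 40.4 CPM in DMSO-treated and 30.1 and 17.4 CPM in ONX-0914-treated mice. Each injected library was thus far above the highest untreated library. The Log2FC was 3.61 (SE 0.403, FDR = 0.0376, edgeR). It was 3.96 with DMSO and 3.18 with ONX-0914, and the difference between them, −0.78 (95% interval −1.48 to −0.09), was not called over all genes (FDR = 0.297, edgeR).

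Cwc22 (ENSMUSG00000027014), on chromosome 2, was the only protein-coding DEG. Its level was 23.1, 28.1 and 24.2 CPM in untreated, 141 and 215 CPM in DMSO-treated and 392 and 174 CPM in ONX-0914-treated mice. The groups did not overlap, and the DMSO and ONX-0914 libraries interleaved. The mean rose from 25.2 ± 2.63 CPM (SD, n = 3) in untreated to 230 ± 112 CPM (SD, n = 4) in injected mice, which is a Log2FC of 3.19 (SE 0.366, FDR = 0.0376, edgeR). The Log2FC was 2.82 with DMSO and 3.48 with ONX-0914, and their difference of 0.67 had a 95% interval from −0.18 to 1.51 (FDR = 0.409, edgeR).

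The calls of 1500015A07Rik and Cwc22 were lost when any single untreated library was left out (FDR from 0.381 to 0.615, edgeR) and when any single DMSO library was left out (FDR from 0.0542 to 0.133, edgeR), and that of 1500015A07Rik also without ONX-0914 replicate 1 (FDR = 0.11, edgeR). Their Log2FC stayed between 3.13 and 3.84 in these fits. Both remained DEG when both ONX-0914 libraries were left out, and neither did when both DMSO libraries were left out (FDR of 0.109 and 0.0846, edgeR).

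Psmc3ip (ENSMUSG00000019303), on chromosome 11, encodes a partner of the meiotic recombinases and came closest to a call. It was at 10.3, 9.83 and 11.3 CPM in untreated, 2.14 and 1.43 CPM in DMSO-treated and 0.747 and 2.09 CPM in ONX-0914-treated mice, with a Log2FC of −2.59 (SE 0.342, FDR = 0.0937, edgeR). The injected libraries lay between 0.747 and 2.14 CPM, well below the untreated ones, and the values for DMSO (−2.51) and ONX-0914 (−2.64) were close. DESeq2 called Psmc3ip, and with it Glo1, Gm4737, mt-Rnr1 and the 3 DEG of edgeR, 7 genes in all.

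On chromosome 17, AC165951.1 was the last of 5 consecutive tested genes that were lower in all 4 injected libraries. In annotation order, these are AC165962.1, Glo1, Dnah8, Glp1r and AC165951.1. Only AC165951.1 was called by edgeR, and the other 4 had an FDR of 0.808, while DESeq2 also called Glo1. Of the tested genes, 12689 could be placed along the chromosomes, and they held no other run of 4 or more nuclear genes on the same side. Of the 611 genes with all injected libraries below (4.81% of the genes tested), 553 stood alone, and 26 pairs of neighbours were found beside this run. Of the 529 genes with all injected libraries above (4.17%), 483 stood alone, 18 pairs were found, 1 run held 3 genes (Zfp354c, Zfp2 and Zfp354a on chromosome 11) and 1 run held 7 genes of the mitochondrial DNA. Some of the 5 genes overlap with each other or with a neighbour on opposite strands (AC165962.1 with Btbd9, and Glp1r with AC165951.1). The strand setting of the counting is not given in the sources used here, so reads of these pairs may have been shared. The RefSeq promoters of Glo1 and Dnah8 do not overlap, and from there these genes run away from each other. AC165962.1, Glp1r and the flanking genes were picked by their position after the values of AC165951.1 were seen.

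Glo1 drew the most reads of this run, at 185, 179 and 178 CPM in untreated, 99.4 and 102 CPM in DMSO-treated and 89.4 and 54.9 CPM in ONX-0914-treated mice. The untreated libraries were close to each other, and every injected library lay far below them. The Log2FC was −1.07 (SE 0.215, 95% interval −1.56 to −0.59), with −0.84 for DMSO and −1.33 for ONX-0914. Dnah8, which encodes a dynein heavy chain of cilia and sperm tails, was at 4.63, 7.65 and 5.51 CPM in untreated, 1.61 and 1.79 CPM in DMSO-treated and 1.24 and 1.41 CPM in ONX-0914-treated mice. Its Log2FC of −2.0 (SE 0.363, 95% interval −2.82 to −1.18) was −1.81 with DMSO and −2.12 with ONX-0914. Its level in all injected libraries rests on few reads.

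Glp1r encodes the receptor of the gut and brainstem peptide GLP-1. It had 8, 26 and 21 counts in the untreated libraries, 3 and 1 counts in the DMSO libraries and 10 and 11 counts in the ONX-0914 libraries, which correspond to 2.85, 7.10 and 5.78 CPM, to 0.804 and 0.357 CPM, and to 2.49 and 0.740 CPM. The injected libraries did not overlap the untreated ones, but untreated replicate 1 and ONX-0914 replicate 1 were close to each other. The Log2FC of Glp1r was −2.34 (SE 0.562, 95% interval −3.60 to −1.08). AC165962.1, an antisense RNA gene next to Glo1, was at 17.4, 14.7 and 12.4 CPM in untreated, 7.24 and 9.65 CPM in DMSO-treated and 11 and 3.50 CPM in ONX-0914-treated mice (Log2FC −1.0, SE 0.383, 95% interval −1.86 to −0.14).

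The genes next to the run differed less. Btbd9, which adjoins AC165962.1, was at 135, 148 and 137 CPM in untreated, 150 and 125 CPM in DMSO-treated and 72.9 and 125 CPM in ONX-0914-treated mice (Log2FC −0.24), and Zfand3 beyond it had a Log2FC of −0.11. On the other side, Abcg1 had −0.14. The groups overlapped for all 3 genes. From Btbd9 to AC165962.1, the Log2FC went from −0.02 to −0.82 with DMSO and from −0.49 to −1.16 with ONX-0914. From AC165951.1 to Abcg1, it went from −9.73 to −0.07 with DMSO and from −7.34 to −0.21 with ONX-0914. Whether the run has an edge at either place was not tested. Rsph1, next to Abcg1, again had all injected libraries below (Log2FC −0.99), with 3.90 CPM in ONX-0914 replicate 2 and 18.8 to 21.4 CPM in the other injected libraries.

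**Figure D2:**
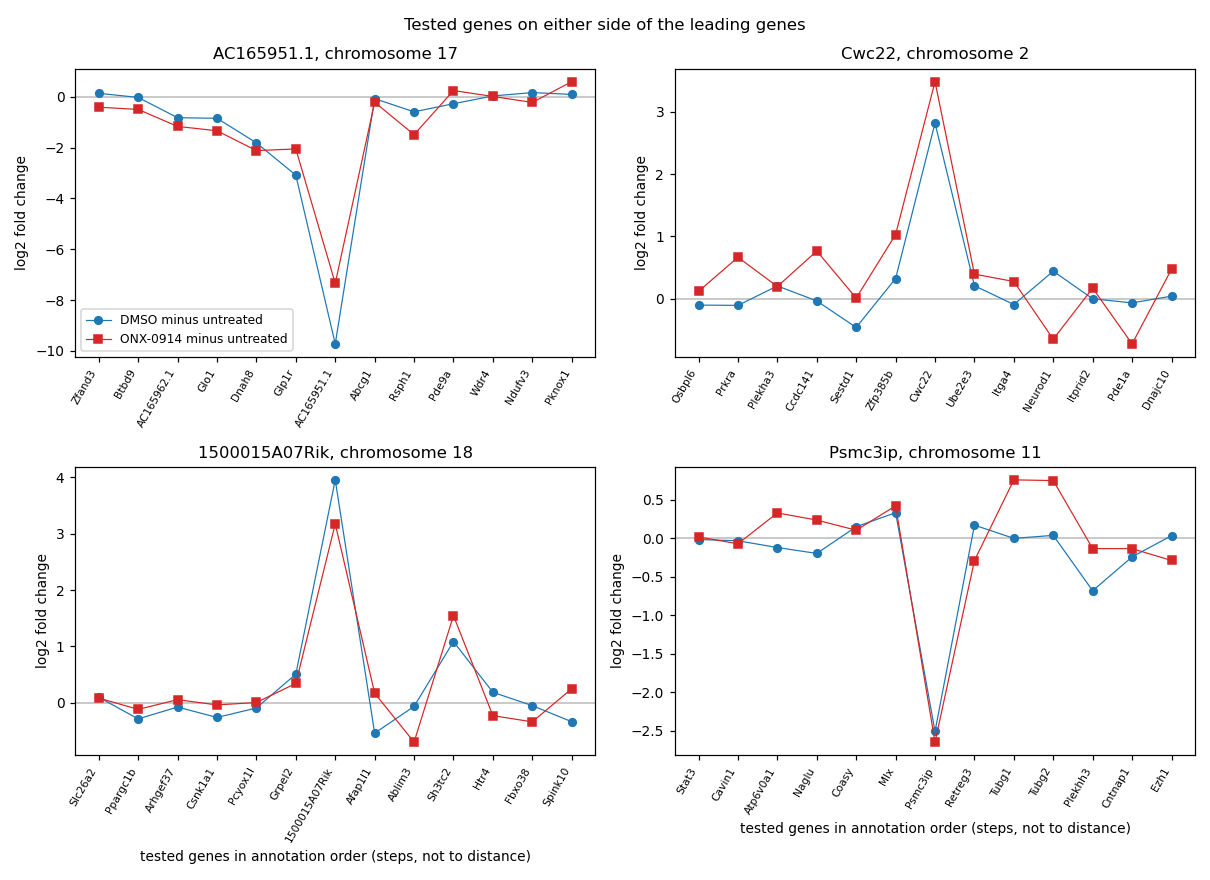
Log2FC against untreated mice for the 6 tested genes on either side of the 4 genes with the lowest FDR, with DMSO (blue circles) and ONX-0914 (red squares) separately. The horizontal axis gives genes in annotation order and is not to distance, and both series share the untreated libraries. AC165951.1 is the lowest point of its panel and the last of the 5 genes whose injected libraries all lie below the untreated ones, whereas Cwc22, 1500015A07Rik and Psmc3ip stand apart from the genes next to them.

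The other leading genes stood apart from their neighbours. Of the 12 tested genes around Cwc22, none had injected and untreated libraries that did not overlap, and their Log2FC lay between −0.36 and 0.74. Of the 12 around Psmc3ip, only Mlx did not overlap (Log2FC 0.38), and the Log2FC of the 12 lay between −0.34 and 0.45. Of the 12 around 1500015A07Rik, only Sh3tc2 did not overlap, at 1.42, 0.819 and 1.65 CPM in untreated, 2.68 and 2.86 CPM in DMSO-treated and 3.98 and 3.70 CPM in ONX-0914-treated mice (Log2FC 1.38). Afap1l1, which 1500015A07Rik overlaps, was not among the genes that differed without overlap.

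Most genes without overlap, which include the called genes, differed little between injected and untreated mice. Non-overlap sets no limit on how far the DMSO and ONX-0914 libraries lay from each other. The median Log2FC was 0.57 over the 529 genes with all injected libraries above and −0.41 over the 611 with all below, and 513 and 588 of them are protein-coding. The median over all tested genes was 0.04. None of the genes named in the next 2 paragraphs was called by edgeR (DESeq2 called Gm4737), and their non-overlap is what they were chosen for, together with a small p.

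Among the genes with all injected libraries above, Cryab, the small heat shock protein alpha B-crystallin of oligodendrocytes and astrocytes, was at 53.0, 46.2 and 41.3 CPM in untreated, 75.9 and 98.7 CPM in DMSO-treated and 78.4 and 74.6 CPM in ONX-0914-treated mice (Log2FC 0.80, SE 0.172). Gatm, the first enzyme of creatine synthesis, was at 49.1, 45.6 and 40.5 CPM in untreated, 68.1 and 65.8 CPM in DMSO-treated and 77.7 and 96.0 CPM in ONX-0914-treated mice (Log2FC 0.78). Both were higher in each of the 4 injected libraries, whichever solution was injected. Rsrp1, an arginine- and serine-rich protein gene, had 47.1 to 66.9 CPM in untreated and 77.2 to 161 CPM in injected mice (Log2FC 1.08). Rnf7, a RING subunit of cullin ubiquitin ligases, had 20.3 to 21.8 against 30.6 to 40.6 CPM (Log2FC 0.71), and Jam3, a junctional adhesion molecule, had 7.16 to 7.83 against 10.7 to 17 CPM (Log2FC 0.98). Ifi203, an interferon-inducible gene with close paralogs, had 0.551 to 1.07 against 2.24 to 6.43 CPM (Log2FC 2.57). Gm4737 had 0 CPM in 2 untreated libraries and 1.07 CPM in the third, against 1.95 to 8.22 CPM.

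Among the genes with all injected libraries below, Eda, the TNF family ligand ectodysplasin, was at 15.7, 14.5 and 12.7 CPM in untreated, 8.58 and 5.0 CPM in DMSO-treated and 4.48 and 5.12 CPM in ONX-0914-treated mice (Log2FC −1.31, SE 0.279). The noncoding gene 9930014A18Rik was at 13.2, 12 and 11 CPM in untreated, 6.43 and 5.0 CPM in DMSO-treated and 2.74 and 4.17 CPM in ONX-0914-treated mice (Log2FC −1.41). In both genes, the injected groups lay clearly apart from the untreated libraries. D430020J02Rik, a noncoding RNA, had 5.34 to 6.28 against 0.357 to 1.99 CPM (Log2FC −2.03). The pseudogenes Gm7729 and Gm5487 had a Log2FC of −2.29 and −3.29, and reads of pseudogenes may come from their parent genes. D3Ertd751e had 5.23 to 16 against 2.41 to 3.48 CPM (Log2FC −1.74), so its untreated libraries differed widely among themselves.

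**Figure D3:**
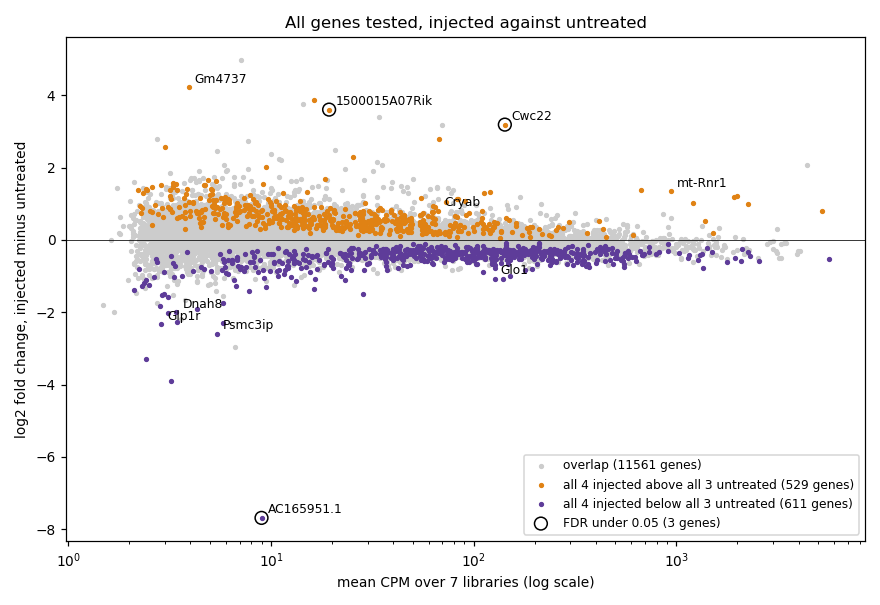
Log2FC of injected against untreated mice for the 12701 genes tested, against their mean level over 7 libraries in CPM (log axis). Orange and purple points are genes with all 4 injected libraries above (529) or below (611) all 3 untreated libraries, and circles mark the 3 genes with an FDR under 0.05. AC165951.1, Cwc22 and 1500015A07Rik lie far from 0, and most of the genes without overlap lie much nearer to it.

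The mitochondrially encoded genes were higher in injected mice without a call by edgeR, while DESeq2 called mt-Rnr1. All 7 protein genes of the mitochondrial DNA that were tested had a Log2FC above 0 (median 0.99), and in 6 of them all injected libraries were above all untreated ones (background 4.17%). These 6 genes all decreased from untreated replicate 1 to replicate 3 and were all highest in ONX-0914 replicate 2. They are thus not independent of each other, whereas the background counts single genes. The ribosomal RNA mt-Rnr1 was at 678, 477 and 345 CPM in untreated, 1377 and 1236 CPM in DMSO-treated and 805 and 1663 CPM in ONX-0914-treated mice (Log2FC 1.35, SE 0.315). Each injected library was thus above the highest untreated library, while the untreated libraries themselves were spread widely. Values for DMSO (1.39) and ONX-0914 (1.30) were close. mt-Nd4, a subunit of respiratory complex I, was at 420, 344 and 287 CPM in untreated, 462 and 530 CPM in DMSO-treated and 465 and 2200 CPM in ONX-0914-treated mice (Log2FC 1.39). For this gene the DMSO value was 0.50 and the ONX-0914 value 1.93, and ONX-0914 replicate 2 alone lay far above the rest. The share of all counts on mitochondrially encoded genes was 0.818% to 1.24% in untreated, 1.59% and 1.59% in DMSO-treated and 1.55% and 3.71% in ONX-0914-treated mice. Of the 13 protein genes, mt-Nd3, mt-Nd4l, mt-Co3, mt-Atp6 and mt-Atp8 had no count in any library, and mt-Co2 had 1 count. The shares thus rest on the remaining genes, and why these lacked counts was not tested. With mitochondrial genes left out of the scaling and the test, the same 3 DEG were obtained.

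Gene lists were described by their counts and medians, beside the background of all genes (0.0236% called, 4.17% above and 4.81% below, median Log2FC 0.04). Cwc22 was the only member of any list that edgeR called. It belongs to a list of 11 genes known to differ between mouse stocks, of which 9 were tested. Besides Cwc22 and Glo1, the other 7 overlapped, and the median was −0.02. Ide, for instance, was at 16.8 to 19.6 CPM in untreated, 16.9 and 17.9 CPM in DMSO-treated and 15.9 and 53.6 CPM in ONX-0914-treated mice.

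Of 16 glucocorticoid-induced genes, 14 were tested and none was called. All injected libraries were above in Cdkn1a and below in Fkbp5 and Zbtb16, and the median Log2FC was 0.30. Cdkn1a, the cell cycle inhibitor p21, was at 3.91, 5.19 and 4.13 CPM in untreated, 7.24 and 12.5 CPM in DMSO-treated and 7.72 and 14.2 CPM in ONX-0914-treated mice (Log2FC 1.26, SE 0.347). Fkbp5, a cochaperone of the glucocorticoid receptor and itself one of its best-known targets, was at 117, 107 and 109 CPM in untreated, 94.1 and 99.7 CPM in DMSO-treated and 46.8 and 82.8 CPM in ONX-0914-treated mice (Log2FC −0.46). Zbtb16, a transcription factor, had a Log2FC of −1.09, with 171 to 252 CPM in untreated, 147 and 107 CPM in DMSO-treated and 31.6 and 88.7 CPM in ONX-0914-treated mice. Sgk1, a kinase, and Tsc22d3, the anti-inflammatory factor GILZ, had a Log2FC of 0.66 and 0.45 and overlapped. The members of this list that did not overlap thus lay on both sides.

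Of 18 immediate early genes, 17 were tested, none was called and none lacked overlap, with a median Log2FC of 0.44. Their summed level was 625 to 732 CPM in untreated, 1220 and 1460 CPM in DMSO-treated and 307 and 941 CPM in ONX-0914-treated mice, so one ONX-0914 library was below and the other 3 injected libraries were above the untreated range. Arc, which encodes a synaptic protein that neurons make on activity, was at 106, 89.0 and 95.2 CPM in untreated, 447 and 345 CPM in DMSO-treated and 34.1 and 67.2 CPM in ONX-0914-treated mice. It was one of 10 genes (0.0787% of those tested) called between ONX-0914 and DMSO, with an FDR of 0.0382 (edgeR). All 10 calls were lost when any single untreated library was left out. Leaving out a DMSO or ONX-0914 library leaves 1 library in that group, so whether the 10 were called in those fits is not given. Fos was at 6.33 to 7.65 CPM in untreated, 22.0 and 23.2 CPM in DMSO-treated and 8.96 and 7.14 CPM in ONX-0914-treated mice (Log2FC 1.04). Npas4, a transcription factor of active neurons, had a Log2FC of 1.74, with 1.74 CPM in one ONX-0914 library and 17.6 CPM in the other.

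In the lists of inflammation, interferon and immunoproteasome genes, which do not hold Ifi203, no tested member was called by edgeR or lacked overlap. These are 6 tested genes of inflammation and acute phase (median Log2FC 0.11), 9 interferon-induced genes (0.27) and 11 genes of the immunoproteasome and MHC class I presentation (0.16). Psmb8, the immunoproteasome subunit that ONX-0914 was designed to inhibit, was at 4.27, 3.0 and 1.38 CPM in untreated, 2.41 and 3.93 CPM in DMSO-treated and 2.49 and 3.57 CPM in ONX-0914-treated mice. B2m, the light chain of MHC class I, was at 72.0 CPM in ONX-0914 replicate 2 and between 11.3 and 19.0 CPM in all other libraries. Of 13 tested antioxidant and xenobiotic response genes, only Slc7a11, the cystine transporter, did not overlap, at 20.6 to 23.8 CPM in untreated, 30.3 and 30.4 CPM in DMSO-treated and 31.1 and 38.7 CPM in ONX-0914-treated mice (Log2FC 0.53). Of 16 tested clock genes, only Cry1, a repressor of the clock, did not overlap (Log2FC 0.32).

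Among the 24 tested subunits of glutamate receptors, Gria1, Grin2a and Grin2b had all injected libraries below and none had all above, and the median Log2FC was −0.04. Grin2b, an NMDA receptor subunit, was at 671, 662 and 766 CPM in untreated, 576 and 519 CPM in DMSO-treated and 311 and 356 CPM in ONX-0914-treated mice (Log2FC −0.67, SE 0.239). Its Log2FC was −0.35 with DMSO and −1.07 with ONX-0914, and the difference of −0.71 had a 95% interval from −1.16 to −0.27 (FDR = 0.201, edgeR). Gria1, an AMPA receptor subunit, was at 1682 to 1853 CPM in untreated, 1585 and 1382 CPM in DMSO-treated and 491 and 679 CPM in ONX-0914-treated mice. Both were thus farther from untreated with ONX-0914 than with DMSO. Markers of dentate gyrus granule neurons, which express these subunits, summed to 529 to 653 CPM in untreated, 475 and 562 CPM in DMSO-treated and 241 and 407 CPM in ONX-0914-treated mice. The part of this in the values of Gria1 and Grin2b was not tested.

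**Figure D4:**
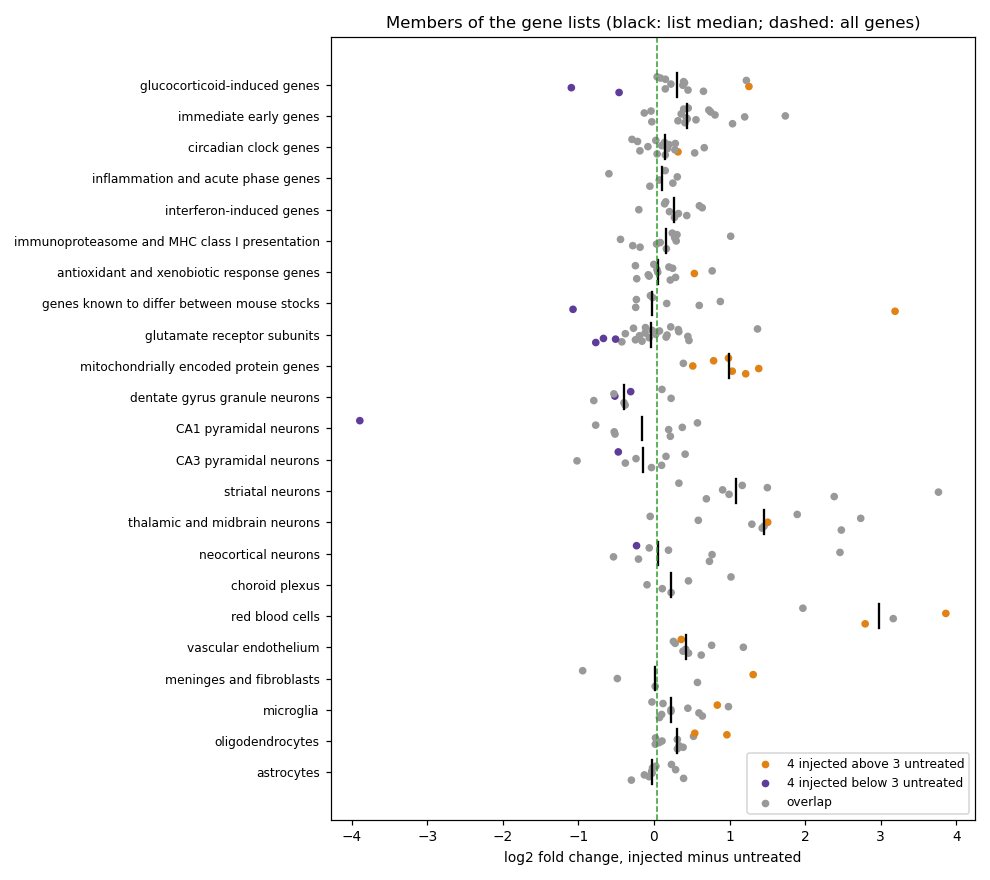
Log2FC of injected against untreated mice for each tested member of the gene lists. Points are genes, colored by whether all 4 injected libraries lie above (orange) or below (purple) all 3 untreated libraries, black bars are list medians and the dashed line is the median of all tested genes. Cwc22, in the list of genes known to differ between mouse stocks, is the only member called by edgeR, and 6 of 7 mitochondrially encoded protein genes are orange.

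Most markers of hippocampal neurons overlapped between injected and untreated mice, and none was called. Of 8 dentate gyrus genes, Dock10 and Plk5 had all injected libraries below, and the median Log2FC was −0.39. Dock10 was at 136, 172 and 158 CPM in untreated, 122 and 131 CPM in DMSO-treated and 101 and 81.9 CPM in ONX-0914-treated mice. Of 8 CA1 genes only Lefty1 and of 8 CA3 genes only Kcnq5 did not overlap, with medians of −0.16 and −0.14. Lefty1, an antagonist of Nodal signaling, was at 7.83, 6.55 and 4.95 CPM in untreated, 0 and 3.22 CPM in DMSO-treated and 0 and 0 CPM in ONX-0914-treated mice. One DMSO library thus lay near the lowest untreated library, and the other had no count. The summed CA1 list was at 627 to 717 CPM in untreated and 636 to 711 CPM in DMSO-treated mice, and at 216 and 687 CPM in ONX-0914-treated mice.

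The striatal and thalamic lists had medians of 1.08 and 1.46, which rest on ONX-0914 replicate 1. Of 8 tested striatal genes none and of 9 tested thalamic and midbrain genes only Lef1 lacked overlap. The median of 4 tested red blood cell genes, 2.98, rests on ONX-0914 replicate 2. Hba-a1, an alpha globin gene, was at 15.7, 18.0 and 13.2 CPM in untreated, 20.1 and 18.2 CPM in DMSO-treated and 49.3 and 338 CPM in ONX-0914-treated mice, and Hbb-bt, a beta globin gene, at 2.14, 1.37 and 2.48 CPM, 5.90 and 2.86 CPM, and 12.2 and 87.6 CPM in the same order. Globin copies are nearly identical, so the counting may have split their reads. In these lists, the summed levels of the DMSO libraries stayed near those of the untreated ones.

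Glial and vascular lists had medians between −0.02 and 0.42, and none of their genes was called. Of 11 oligodendrocyte genes, Opalin and Aspa had all injected libraries above (median 0.31). Opalin, a membrane protein of myelin, was at 6.05, 6.55 and 4.68 CPM in untreated, 8.58 and 6.79 CPM in DMSO-treated and 11.4 and 16.3 CPM in ONX-0914-treated mice. The myelin gene Mbp overlapped, and the list summed to 5410 to 8150 CPM in untreated, 8410 and 9970 CPM in DMSO-treated and 10500 and 4810 CPM in ONX-0914-treated mice. Of 9 endothelial genes, Slc2a1, the glucose transporter of the blood-brain barrier, had all injected libraries above, at 70.5 to 80.1 CPM against 92.6 to 107 CPM (Log2FC 0.36), with nearly equal values for DMSO (0.34) and ONX-0914 (0.38). The 11 microglial genes had a median of 0.22, and the 10 astrocyte genes, which all overlapped, one of −0.02. Ptgds, a prostaglandin synthase of meninges and oligodendrocytes, was at 42.4 to 87.4 CPM in untreated, 87.6 and 88.7 CPM in DMSO-treated and 123 and 346 CPM in ONX-0914-treated mice. Among the lists of meninges, choroid plexus and neocortical neurons, the genes without overlap were Ptgds (above) and the neocortical gene Etv1 (below). None of 9 neutrophil and T cell genes had enough counts to be tested, with summed levels of 0 to 1.38 CPM in untreated, 0.715 and 1.34 CPM in DMSO-treated and 5.73 and 17.3 CPM in ONX-0914-treated mice.

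**Figure D5:**
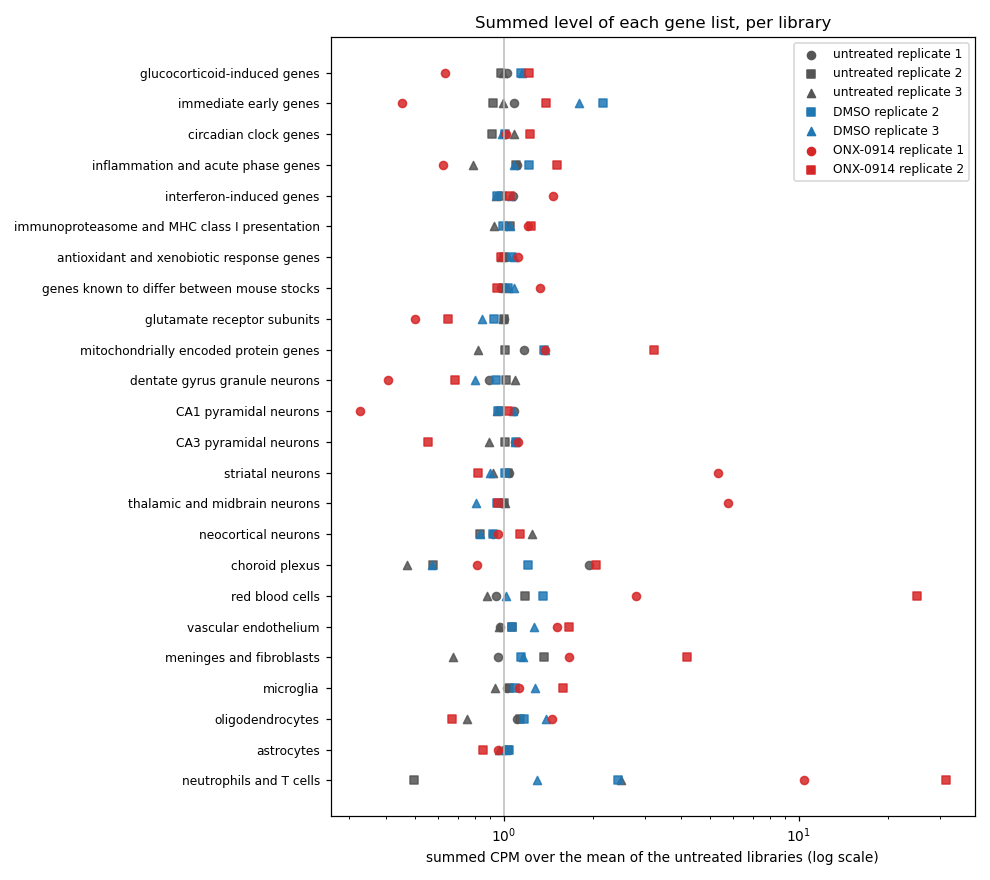
Summed CPM of each gene list in each library, divided by the mean of the 3 untreated libraries (log axis). Gray symbols are untreated, blue DMSO and red ONX-0914 libraries, and the shape gives the replicate number. ONX-0914 replicate 1 stands apart in striatal and thalamic genes and ONX-0914 replicate 2 in red blood cell and mitochondrially encoded genes, while DMSO libraries stay near the untreated ones in most lists.

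The difference between ONX-0914 and DMSO was tested for the 42 genes named by rule. None was called (edgeR), and 15 had an unadjusted p under 0.05. Over all 12701 genes tested, 10 were called and 1858 had an unadjusted p under 0.05. The 42 genes were chosen by values of these same libraries, so their count of 15 is no result about them. DESeq2 called 3 of the 42, among them Hbb-bt and Prss35, and 247 over all genes. For AC165951.1 the interval of the difference was wide, from −1.97 to 6.74, since both groups were at or near 0. For Glo1, the difference of −0.49 had a 95% interval from −1.03 to 0.05, and for Psmc3ip, −0.14 from −1.42 to 1.15. A missed threshold does not show that both injected groups had the same level, and for none of these genes was this shown.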

How the data were processed

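The analysis used 7 RNA-seq libraries of mouse hippocampus (3 untreated, 2 DMSO-treated, 2 ONX-0914-treated). Per the labels, RNA had a RIN of at least 8, and directional libraries were sequenced single-end. The authors deposited whole-number read counts per gene and library without normalization. The submitters' processing notes name Trimmomatic 0.39, STAR 2.7.3a, featureCounts 2.00 and the genome build GRCm39, and the strand setting is not given in the sources used here. Of the reads, 89.6% to 91.4% were assigned to genes, 4.75% to 6.49% fell on no gene and 3.75% to 3.92% were ambiguous, and only assigned reads entered the tests. Of 55416 identifiers, 52135 (99.8% of the counts) were given a symbol. Symbols came from GENCODE M21, whose build is GRCm38, and from a further list of gene names where GENCODE M21 had none. Only symbols, gene types and gene order of GENCODE M21 were used, and promoter coordinates are those of RefSeq on GRCm38.p6.

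The tests were run with edgeR 4.0.16 under R 4.3.3 (filterByExpr with 2 groups, TMM, estimateDisp, glmQLFit in its newer form, glmQLFTest, Benjamini-Hochberg over all tested genes). TMM factors were 0.966 to 1.09 and the common biological coefficient of variation was 0.277. DMSO and ONX-0914 were set apart in a model with 1 mean per group. Their comparisons with untreated mice share the same 3 libraries. Log2FC values use a prior count of 0.125, and standard errors follow from the F statistics. Intervals of a Log2FC come from the same fit and include the spread between libraries, whereas the Poisson interval and the limit of 3 counts cover counting error only. No libraries were copies of each other: the chi-square per degree of freedom was 2.5 to 3.2 within the untreated and DMSO groups and 76.9 between the ONX-0914 libraries.

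The comparison, the gene lists and the rule for naming genes were chosen with earlier results of these data known. The rule took, in each direction, called genes without overlap, filled up to 10 by the smallest p among genes without overlap that have a symbol, and from each list the called members or else the member with the smallest p, 42 genes in all. Other list members, and genes next to the called ones, were picked with their values in view. Alternatives were a 3-group model, DESeq2 1.42.0, limma voom (limma 3.58.1), RLE factors, total counts, no count filter, at least 10 counts in every library, the earlier quasi-likelihood form, robust estimation, no mitochondrial genes, a replicate block, and leaving out single libraries or an injected group. On simulated counts of 12460 genes, the test made 11 false calls among 147. The results of some genes are not reported here.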

Additional observations from a re-analysis of the deposited data

Results flagged for a closer look

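In 11 of the named genes, 1 injected library lay far from the other 3. For 4 values drawn from the same normal distribution, a gap of this relative size arises in about 1 in 20 groups. The 42 groups looked at mix DMSO and ONX-0914 libraries of selected genes, some with hardly any counts, so that rate cannot be applied to them. In ONX-0914 replicate 2, AC165951.1 was at 0.135 CPM while the other injected libraries were at 0, Gm4737 at 1.95 CPM (others 8.04 to 8.22), Hbb-bt at 87.6 CPM (2.86 to 12.2), Slc7a11 at 38.7 CPM (30.3 to 31.1), Ptgds at 346 CPM (87.6 to 123), mt-Nd4 at 2200 CPM (462 to 530), B2m at 72 CPM (12.9 to 19.0) and Vcam1 at 27.7 CPM (36.1 to 37.6). In DMSO replicate 2, Eda was at 8.58 CPM (others 4.48 to 5.12). In DMSO replicate 3, Cryab was at 98.7 CPM (74.6 to 78.4) and Lefty1 at 3.22 CPM, while the other injected libraries had no Lefty1 count.

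Outside the counts on genes, the share of reads that fell on no gene was 6.49% in ONX-0914 replicate 1 and 6.39% in ONX-0914 replicate 2, above the 5.48% to 5.59% of the untreated libraries.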

How the results depend on the processing

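The 3 DEG were obtained again with the 3-group model, RLE factors, total counts, the earlier quasi-likelihood form, robust estimation and without mitochondrial genes, and with 1 gene more when no count filter was applied. The number was 7 with DESeq2, 1 with limma voom, and 0 with at least 10 counts in every library, where 594 genes had an unadjusted p under 0.05 and AC165951.1 and 1500015A07Rik could not be tested. Leaving out 1 library gave 1 to 5, with 5 without ONX-0914 replicate 2, 2 without ONX-0914 replicate 1, and 1 in each of the other 5 cases. Without both ONX-0914 libraries 141 genes were called, and without both DMSO libraries 3, of which 1 was among the main 3. AC165951.1 was called in all 19 settings that tested it, 1500015A07Rik in 10 of 19 and Cwc22 in 11 of 20, with Log2FC ranges of −9.16 to −7.12, 3.18 to 3.94 and 2.80 to 3.48. The Log2FC of Prlr became −0.52 and that of Ifitm3 −0.03 without both ONX-0914 libraries, and the cause was not tested.

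Genes without overlap, 529 above and 611 below, numbered 761 and 423 with total counts, where the median Log2FC of all genes rose to 0.11, so the split between both sides depends on the scaling. They numbered 842 to 1064 and 900 to 1064 with 1 library left out, 2005 and 1923 without both ONX-0914 libraries, and 2125 and 2150 without both DMSO libraries, as fewer libraries overlap less often. Among the 42 named genes, the number called between ONX-0914 and DMSO was 0, but 3 with DESeq2, 5 without a count filter and 0 to 21 with 1 library left out, 21 without ONX-0914 replicate 1 and 9 without ONX-0914 replicate 2. Over all genes, 247 were called with DESeq2 and 297 without a count filter, so calls were not particular to the named genes. Leaving out a DMSO or ONX-0914 library leaves 1 library in that group, which shows no spread of its own. The 21 and the 9 come from such fits and are no result about the named genes. Deviations from the group mean of libraries with the same replicate number correlated at −0.11 to 0.08. In a group of 2 libraries these deviations mirror each other, so this cannot decide whether the numbers pair the samples. With the replicate number as a block, 1 gene was called between injected and untreated mice, and 0 named genes between ONX-0914 and DMSO.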
